A study of Drosophila melanogaster with 20 samples.

Results

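The genes described here are 41 genes of the mitotic cell cycle and of DNA replication in Drosophila embryos, out of 17714 genes in the count tables. They were chosen by name for what their proteins do, with earlier results of these data known, and matched to the tables by their FlyBase numbers. By role, 15 act in DNA replication, 18 in mitosis and 8 in the control of G1 and of entry into S phase. RNA came from whole embryos laid over 24 h at 25 °C, so each library holds a mix of young and old embryos. There were 20 libraries in 10 groups of 2, so that n = 2 for each group mean. UAS-wnt4, UAS-otk1 and UAS-otk1 UAS-wnt4 embryos overexpressed the ligand Wnt4, its co-receptor Otk (otk1) or both, and otk2 RNAi embryos carried a hairpin against otk2, the paralog of otk1. The other groups were labelled wnt4 RNAi, otk1 RNAi, otk1 RNAi wnt4 RNAi, otk2 RNAi wnt4 RNAi and otk1 RNAi otk2 RNAi, and the last group was WT. The paper lists crosses of these transgenes to mat, da GAL4, a recombinant of a maternal tubulin driver, active in the egg, and a daughterless driver, active in most embryonic cells. It also lists an elav GAL4 cross to the otk1 and otk2 hairpins, and does not say which crosses were sequenced. The sources used here do not state whether WT embryos carried this driver, nor whether libraries of the same group were separate egg collections, so the p-values measure only how these libraries vary.

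Replication starts at origins that are bound by the origin recognition complex and licensed in G1, when Cdc6 and Dup load the Mcm helicase, and Geminin holds Dup back once S phase has begun. Mitosis is started by Cdk1 with its cyclins after String or Twine removes the inhibitory phosphate, and ends when the anaphase promoting complex, with Fizzy or Fizzy-related, destroys the cyclins. Fly embryos first run fast cycles on maternal RNA, then cycles timed by zygotic string, and most cells later stop in G1 under Dacapo and Rbf, while neuroblasts and endoreplicating tissues go on.

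Between 33641572 and 41753907 expected counts were assigned to genes per library, and the 41 genes held between 0.583% (WT replicate 1) and 1.23% of them. Of the target genes, Wnt4 did not follow its RNAi label. In the libraries labelled wnt4 RNAi, Wnt4 stood at 159 and 143 CPM (counts scaled to a common library total, TMM-normalized), against 126 and 107 CPM in WT, which is higher by a log2 fold change of 0.37 ± 0.15 (SE, adjusted p = 0.0544, edgeR). These libraries are therefore called the libraries labelled wnt4 RNAi throughout. In the double groups Wnt4 did not pass against the partner hairpin alone either, with log2 fold changes of -0.11 ± 0.15 in otk1 RNAi wnt4 RNAi against otk1 RNAi and 0.10 ± 0.15 in otk2 RNAi wnt4 RNAi against otk2 RNAi. Against WT it was lower in both double groups (-0.49 ± 0.15, adjusted p = 0.0153, and -0.56 ± 0.15, adjusted p = 0.0102, edgeR), and also in otk1 RNAi (-0.38) and otk2 RNAi (-0.66), which carry no wnt4 label. The libraries labelled wnt4 RNAi had lower otk (-0.62) and otk2 (-0.45) than WT. By contrast, otk fell to 56.0 and 46.0 CPM in otk1 RNAi, against 199 and 178 CPM in WT, and otk2 fell to 28.4 and 23.7 CPM in otk2 RNAi, against 67.5 and 61.6 CPM in WT. The WT libraries stood apart from each other. All 41 genes were higher in WT replicate 2 than in WT replicate 1, by a median of 0.74 on the log2 scale (0.10 to 1.16), where the median over all genes tested was -0.01. The UAS-wnt4 libraries differed in the same way, with 40 of 41 genes higher in replicate 2 (median 0.58), while in each of the other 8 groups the median difference lay between -0.12 and 0.04.

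In these bulk libraries, fewer dividing cells and less cell cycle RNA per cell cannot be told apart. Set on a scale that corrects for gene length (TPM, the deposited length-scaled unit), the most abundant of the 41 was the mitotic cyclin gene CycB with a mean of 717 TPM over the 20 libraries, followed by CycA (428 TPM) and geminin (371 TPM). The lowest was Orc2, a subunit of the origin recognition complex, with 13.3 TPM, followed by Orc6 (22.1 TPM) and Cdk4 (28.3 TPM). All 41 genes had enough counts to be tested. In the annotation of the reference genome (dm6, Ensembl BDGP6.54), 14 of the genes lie on chromosome arm 2R, 10 on 3R, 6 on 2L, 6 on 3L and 5 on X. Of the 41, 19 overlap another annotated gene on the opposite strand, and for these the reads of both genes may have been mixed, since nothing is stated on strand in the counting.

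**Figure D1:**
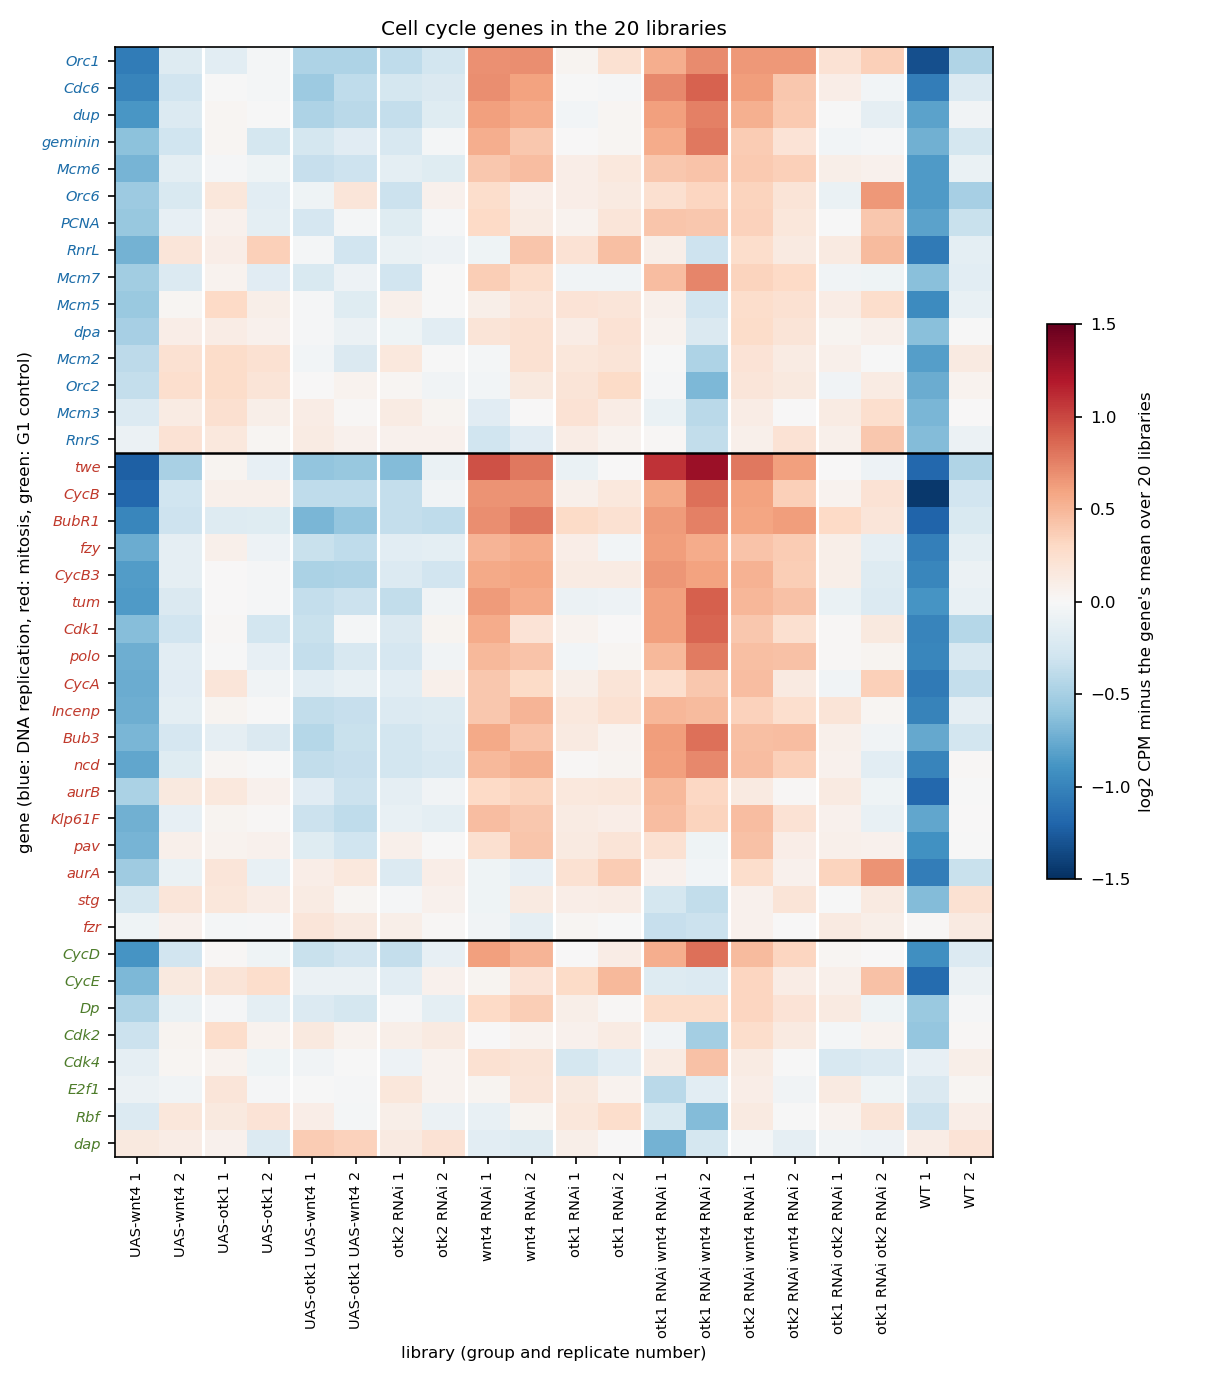
Heat map of the 41 genes (rows, grouped as DNA replication, mitosis and G1 control) in the 20 libraries (columns, by group and replicate). Colour is the log2 CPM of the gene minus its mean over all libraries, red above and blue below that mean. WT 1 and UAS-wnt4 1 are blue in nearly all rows, and the 3 groups with the wnt4 RNAi label are red in most rows of the first 2 blocks. Genes such as the replication genes RnrS, Mcm3, Mcm2 and Orc2, and fzr, stg, E2f1, Rbf and dap, do not follow.

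Most members sat at their lowest level in the same library. WT replicate 1 was the lowest of the 20 libraries for 34 of the 41 genes. At the other end, otk1 RNAi wnt4 RNAi replicate 2 was the highest library for 14 genes and replicate 1 for 5. The share of members that differed across the 10 groups, 27 of 41, was close to that of all genes tested, of which 64.1% passed (edgeR's quasi-likelihood test, Benjamini-Hochberg adjusted p under 0.1 over 11154 genes). In the 5 groups with a hairpin against otk1 or with the wnt4 RNAi label, given below, the calls against WT were nearly all higher. There 53.7% to 78.0% of the members passed, against 45.5% to 62.2% of all genes. Listed genes of the egg and germ plasm were one-sided there as well, with 7 to 10 of 12 higher and 0 lower. The p-values that follow are from the same test with all libraries in the fit, and a gene is said to rise or fall where its adjusted p was under 0.1.

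Overexpression of the ligand or the co-receptor left few of the genes past the threshold. In UAS-wnt4 against WT, 0 of 41 passed in edgeR, where 0.61% of all genes did, 0.215% higher and 0.394% lower (1 gene at an unadjusted p under 0.05, 0 by DESeq2), and the median log2 fold change was 0.10. In UAS-otk1 against WT, 0 of 41 passed in edgeR, where 2.84% of all genes did, 1.19% higher and 1.65% lower (21 at an unadjusted p under 0.05, 11 by DESeq2). The levels there were nonetheless higher than in WT for 39 of the 41 genes, with a median of 0.46. In UAS-otk1 UAS-wnt4 against WT, where 4.82% of all genes passed (1.35% higher, 3.47% lower), the kinase gene aurA, which acts at centrosomes and spindle poles, was the 1 member called. It had 42.1 and 44.1 CPM in UAS-otk1 UAS-wnt4, against 19.2 and 31.2 CPM in WT, a log2 fold change of 0.78 ± 0.21 (adjusted p = 0.0838, edgeR), and did not pass without either UAS-otk1 UAS-wnt4 library. In otk2 RNAi against WT, 0 of 41 passed in edgeR, where 1.78% of all genes did, 0.475% higher and 1.31% lower (8 at an unadjusted p under 0.05, 1 by DESeq2), with a median of 0.32. These counts rest on the WT library used. Without WT replicate 2, 37 of the 41 genes passed in UAS-otk1 (35.9% of all genes), 35 in otk2 RNAi (21.5%), 29 in UAS-otk1 UAS-wnt4 (18.9%) and 3 in UAS-wnt4 (1.57%), and without WT replicate 1 none of the 41 passed in any of these groups. The remaining WT library is assumed to vary as much as the other groups do.

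The 5 groups with a hairpin against otk1 or with the wnt4 RNAi label had more of the genes called, nearly all of them higher. These comparisons share the WT libraries and are given side by side. In the libraries labelled wnt4 RNAi, 30 genes stood higher than in WT and 1 lower, where 59.2% of all genes passed, 29.7% higher and 29.5% lower. The otk1 RNAi wnt4 RNAi embryos had 26 higher and 2 lower (all genes 62.2%, as 30.9% and 31.4%), and otk2 RNAi wnt4 RNAi embryos had 32 higher and 0 lower (all genes 54.7%, as 27.7% and 27%). In otk1 RNAi, 25 were higher and 0 lower (all genes 45.5%, as 21% and 24.5%), and in otk1 RNAi otk2 RNAi 22 were higher and 0 lower (all genes 46.8%, as 22.5% and 24.4%). In the 3 comparisons without a lower member, edgeR also called 0, 0 and 0 lower at an unadjusted p under 0.05, and DESeq2 called 0, 0 and 0. The median log2 fold change of the 41 genes was 0.77 in the libraries labelled wnt4 RNAi, 0.88 in otk1 RNAi wnt4 RNAi, 0.77 in otk2 RNAi wnt4 RNAi, 0.55 in otk1 RNAi and 0.50 in otk1 RNAi otk2 RNAi, where the median of all genes lay between -0.08 and 0.02.

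Counted without a test, both libraries of a group lay above both WT libraries for 32 of the 41 genes in the libraries labelled wnt4 RNAi (37.2% of all genes), 26 in otk1 RNAi wnt4 RNAi (35.2%), 34 in otk2 RNAi wnt4 RNAi (36.7%), 36 in otk1 RNAi (35.6%) and 25 in otk1 RNAi otk2 RNAi (33.7%). In otk1 RNAi both were below WT for 2 genes, Cdk4 and dap (35.8% of all genes). Outside these groups, UAS-otk1 had 32 genes with both libraries above WT (26.5% of all genes) and 2 with both below (28.5%). In otk2 RNAi 15 were above (21.8%) and 0 below (21.7%). In UAS-otk1 UAS-wnt4 10 were above (27.5%) and 0 below (24.3%), and in UAS-wnt4 1 was above (12.4%) and 0 below (13.2%).

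WT replicate 1 carried much of these counts. Without it, the libraries labelled wnt4 RNAi had 22 genes higher and 1 lower, where 37.3% of all genes passed in either direction. In otk1 RNAi wnt4 RNAi 21 were higher and 5 lower (all genes 47.3%), and in otk2 RNAi wnt4 RNAi 19 were higher and 0 lower (all genes 28.2%). In otk1 RNAi otk2 RNAi 3 genes were higher, aurA, Orc1 and Orc6 (all genes 19.4%), and in otk1 RNAi 0 passed in edgeR (all genes 9.75%). Against WT replicate 2 alone the median log2 fold change was 0.47 in the libraries labelled wnt4 RNAi, 0.51 in otk1 RNAi wnt4 RNAi, 0.42 in otk2 RNAi wnt4 RNAi, 0.18 in otk1 RNAi otk2 RNAi and 0.19 in otk1 RNAi. In otk1 RNAi the count was 11 without its own replicate 1 and 6 without its replicate 2, and in otk1 RNAi otk2 RNAi it was 8 without its replicate 2.

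**Figure D2:**
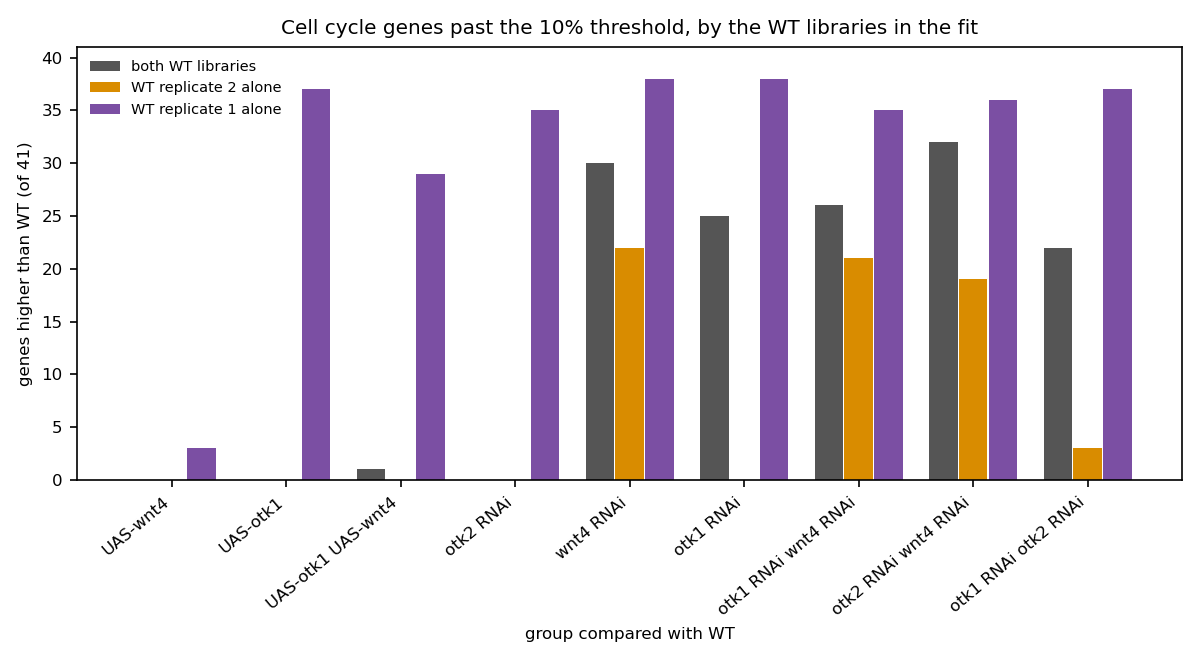
Number of the 41 cell cycle genes called higher than WT (edgeR adjusted p under 0.1, y axis) in each of the 9 groups (x axis), with both WT libraries in the fit (grey), with WT replicate 2 alone (orange) and with WT replicate 1 alone (purple). In otk1 RNAi the count is 25 with both, 0 with replicate 2 alone and 38 with replicate 1 alone, whereas in the libraries labelled wnt4 RNAi it is 30, 22 and 38.

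Levels of genes that mark embryonic age and tissue moved with these groups, and some moved in other groups too. Over all genes, 21% to 30.9% were higher and 24.4% to 31.4% lower in the 5 groups. The summed level of 8 muscle genes was 2440 to 3322 CPM in the libraries labelled wnt4 RNAi, 2447 to 4296 CPM in otk1 RNAi wnt4 RNAi and 3760 to 4003 CPM in otk1 RNAi, against 6652 to 10812 CPM in WT. All 8 fell in each of the 5 groups. Of 9 cuticle genes, 7 were lower in the libraries labelled wnt4 RNAi, 8 in otk1 RNAi, 9 in otk1 RNAi wnt4 RNAi, 4 in otk2 RNAi wnt4 RNAi and 8 in otk1 RNAi otk2 RNAi. Of 12 genes of the egg and germ plasm 7 were higher in the libraries labelled wnt4 RNAi, 9 in otk1 RNAi and 8 in otk1 RNAi wnt4 RNAi. Their summed level was 1222 to 1302 CPM in the libraries labelled wnt4 RNAi, against 668 to 968 CPM in WT. UAS-otk1 embryos, with 3 of these 12 genes higher (1.19% of all genes), had a similar sum of 1215 to 1233 CPM. Few of the 13 blastoderm genes passed, with 3 higher and 1 lower in the libraries labelled wnt4 RNAi, 1 higher in otk1 RNAi, and 2 higher and 1 lower in otk1 RNAi wnt4 RNAi. The 7 neuroblast genes, listed as markers of neural precursors, summed to 330 to 393 CPM in otk1 RNAi wnt4 RNAi, against 688 to 925 CPM in WT, and all 7 were lower there. Fewer were lower in the libraries labelled wnt4 RNAi (3, or 42.9%, all genes 29.5%) and otk1 RNAi (1, or 14.3%, all genes 24.5%). In otk2 RNAi wnt4 RNAi 2 were lower (28.6%, all genes 27%), and in otk1 RNAi otk2 RNAi 2 (28.6%, all genes 24.4%). Outside the libraries labelled wnt4 RNAi these smaller counts were near or below the share of all genes. Of 8 neuron genes 7 fell in each group with the wnt4 RNAi label, and 6 in otk1 RNAi and in otk1 RNAi otk2 RNAi. In the libraries labelled wnt4 RNAi and in otk2 RNAi wnt4 RNAi 1 neuron gene rose. Genes of the follicle cells that surround the egg in the ovary were near 0 (1.29 to 4.52 CPM summed over 9 genes in all libraries, with Cp19 at 0). A stage score, the mean log2 CPM of cuticle, muscle and neuron genes minus that of egg and blastoderm genes, ran from -1.15 to -0.26 in the 5 groups, against 2.27 and 0.84 in WT. It was also below both WT scores in UAS-otk1 (-0.22 and 0.31), UAS-otk1 UAS-wnt4 (0.26 and -0.07) and otk2 RNAi (0.31 and 0.13). In UAS-wnt4 it was 1.565 and 0.004. With this score as a covariate in edgeR, none of the 41 passed in the libraries labelled wnt4 RNAi (2.83% of all genes), in otk1 RNAi (0.583%) or in otk2 RNAi wnt4 RNAi (1.62%), and dup alone, lower, in otk1 RNAi otk2 RNAi (0.565%). In otk1 RNAi wnt4 RNAi 9 were higher, Mcm7, Orc1, geminin, Cdc6, twe, polo, Cdk1, Bub3 and CycD, and 6 lower, stg, dap, CycE, E2f1, Rbf and fzr (all genes 27.7%). With 1 mean per group in the fit, the slope on the score comes only from differences within groups. These were widest in WT and UAS-wnt4, the pairs in which 41 and 40 of the genes were higher in replicate 2. The slope was then carried to the lower scores of the 5 groups, so calls lost or turned with the score are no test of stage. The scores of all 10 libraries of the 5 groups lie below both WT scores, so that embryonic stage and genotype cannot be told apart.

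The replication genes with the largest fold changes in the libraries labelled wnt4 RNAi and in otk1 RNAi wnt4 RNAi were Orc1, Cdc6, geminin and dup, which mark origins, load the helicase there or hold the loading in check. Of the 15 replication members, 11 were higher in the libraries labelled wnt4 RNAi (median log2 fold change 0.73), 8 in otk1 RNAi wnt4 RNAi (0.84), 12 in otk2 RNAi wnt4 RNAi (0.73), 11 in otk1 RNAi (0.53) and 10 in otk1 RNAi otk2 RNAi (0.50). None was lower. Without WT replicate 1, 8 of the 15 passed in each group with the wnt4 RNAi label. They were Orc1, Orc6, Cdc6, dup, geminin, Mcm6, Mcm7 and PCNA.

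Orc1 (FBgn0022772 in the files, on 2R, overlapping PIG-G on the other strand) encodes the largest subunit of the origin recognition complex. It had 218 and 219 CPM in the libraries labelled wnt4 RNAi, 198 and 221 CPM in otk1 RNAi wnt4 RNAi and 213 and 213 CPM in otk2 RNAi wnt4 RNAi, against 54.1 and 98.8 CPM in WT. In otk1 RNAi it had 139 and 159 CPM and in otk1 RNAi otk2 RNAi 157 and 174 CPM. All 10 libraries lay above both WT libraries, those with the wnt4 RNAi label furthest. The log2 fold change was 1.51 ± 0.25 in the libraries labelled wnt4 RNAi (adjusted p = 0.000554, edgeR) and 0.96 ± 0.25 in otk1 RNAi (adjusted p = 0.0144, edgeR). Against WT replicate 2 alone these were 1.14 and 0.60, and the otk1 RNAi value no longer passed. Orc6 also rose in all 5 groups, by 0.77 to 0.98, while Orc2 passed in none of them (-0.02 to 0.53) and spread widely within otk1 RNAi wnt4 RNAi, at 23.2 and 14.7 CPM.

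Cdc6 (FBgn0035918, chromosome arm 3L, bases 8631509 to 8634069, minus strand, overlapping Zasp66 on the other strand) encodes the ATPase that loads the helicase together with Dup. It had 247 and 232 CPM in the libraries labelled wnt4 RNAi, 253 and 282 CPM in otk1 RNAi wnt4 RNAi and 235 and 202 CPM in otk2 RNAi wnt4 RNAi, against 74.7 and 133 CPM in WT. It stood at 152 and 151 CPM in otk1 RNAi and at 164 and 149 CPM in otk1 RNAi otk2 RNAi, closer to WT replicate 2. The log2 fold change was 1.21 ± 0.23 in the libraries labelled wnt4 RNAi (adjusted p = 0.00111, edgeR), 1.37 ± 0.23 in otk1 RNAi wnt4 RNAi (adjusted p = 0.000273) and 0.55 ± 0.23 in otk1 RNAi (adjusted p = 0.0743). The last was 0.20 against WT replicate 2 alone and did not pass.

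The gene dup (double parked, FBgn0000996, the fly Cdt1, overlapping SRPK on the other strand) followed the same order. It had 573 and 551 CPM in the libraries labelled wnt4 RNAi, 573 and 630.4 CPM in otk1 RNAi wnt4 RNAi and 542 and 488 CPM in otk2 RNAi wnt4 RNAi, against 214 and 359.6 CPM in WT. In otk1 RNAi dup had 362 and 380.5 CPM and a log2 fold change of 0.37 ± 0.21 that did not pass (adjusted p = 0.176, edgeR), against 0.97 ± 0.21 in the libraries labelled wnt4 RNAi (adjusted p = 0.00243, edgeR). Its inhibitor geminin (FBgn0033081) had 379 and 344 CPM in the libraries labelled wnt4 RNAi, 384 and 449 CPM in otk1 RNAi wnt4 RNAi and 339 and 301 CPM in otk2 RNAi wnt4 RNAi, against 158 and 217 CPM in WT. Both genes were above WT in all 6 of these libraries, with no overlap. For geminin the log2 fold change was 0.95 ± 0.16 in the libraries labelled wnt4 RNAi (adjusted p = 0.000584, edgeR) and 0.49 ± 0.16 in otk1 RNAi, where it had 261 and 265 CPM (adjusted p = 0.0332, edgeR). The otk1 RNAi value was 0.28 against WT replicate 2 alone and did not pass.

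The genes of the 6 helicase subunits, whose proteins work as a hexamer, were not all called together. Mcm6 and Mcm7 rose in all 3 groups with the wnt4 RNAi label, by 0.80 to 0.86 and by 0.69 to 0.98. By contrast, Mcm2 passed in none of the 5 groups (0.05 to 0.44). It had 141 and 169 CPM in the libraries labelled wnt4 RNAi, which overlapped with WT, and 162 and 164 CPM in otk1 RNAi, which did not, against 81.4 and 158 CPM in WT. Mcm3 rose in otk1 RNAi (0.47) and otk1 RNAi otk2 RNAi (0.49) and did not pass in any group with the wnt4 RNAi label (0.06 to 0.36). Mcm5 and dpa, the Mcm4 gene, passed in the libraries labelled wnt4 RNAi (0.60 and 0.49) and not in otk1 RNAi wnt4 RNAi (0.37 and 0.21). PCNA, the sliding clamp of the polymerase, rose in all 5 groups by 0.67 to 0.96. Of the ribonucleotide reductase genes, which supply deoxynucleotides, RnrL rose in 4 groups (0.73 to 0.87) and did not pass in otk1 RNAi wnt4 RNAi (0.43), while RnrS passed in 3, by 0.42 to 0.59, and not in the libraries labelled wnt4 RNAi (0.10).

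Mitosis genes were called higher in each of the 5 groups, where 21% to 30.9% of all genes were higher and 24.4% to 31.4% lower. Of the 18 genes, 16 were higher in the libraries labelled wnt4 RNAi (median log2 fold change 1.00), 15 in otk1 RNAi wnt4 RNAi (1.09), where 1 was lower, 16 in otk2 RNAi wnt4 RNAi (0.91), 12 in otk1 RNAi (0.59) and 10 in otk1 RNAi otk2 RNAi (0.52). Without WT replicate 1 these counts were 12, 12, 10, 0 and 1, with 2 lower, stg and fzr, in otk1 RNAi wnt4 RNAi.

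The phosphatase gene twe (twine, FBgn0002673, chromosome arm 2L, bases 16259414 to 16261877, minus strand, overlapping EndoGI on the other strand), which acts in meiosis and in the early cycles on maternal RNA, had the largest fold change of the 41 in the libraries labelled wnt4 RNAi and in otk1 RNAi wnt4 RNAi. It had 221 and 197 CPM in the libraries labelled wnt4 RNAi, 243 and 277 CPM in otk1 RNAi wnt4 RNAi and 197 and 175 CPM in otk2 RNAi wnt4 RNAi, against 50.5 and 83.3 CPM in WT. In otk1 RNAi twe had 106 and 115 CPM and in otk1 RNAi otk2 RNAi 115 and 108 CPM. Each of the 10 libraries was above both WT libraries, and the 6 with the wnt4 RNAi label were above the other 4. The log2 fold change was 1.64 ± 0.25 in the libraries labelled wnt4 RNAi (adjusted p = 0.000350, edgeR), 1.96 ± 0.25 in otk1 RNAi wnt4 RNAi (adjusted p = 4.59e-05) and 0.72 ± 0.24 in otk1 RNAi (adjusted p = 0.0372). Against WT replicate 2 alone they were 1.32, 1.64 and 0.41, and the last did not pass. Its paralog stg (string), which times the zygotic cycles, passed in none of the 5 groups (-0.17 to 0.28). It had 288 and 333 CPM in the libraries labelled wnt4 RNAi and 252 and 233 CPM in otk1 RNAi wnt4 RNAi, against 192 and 353 CPM in WT, so that the groups overlapped.

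Cdk1 (FBgn0004106, on 2L), the kinase that both phosphatases activate, had 293 and 230.4 CPM in the libraries labelled wnt4 RNAi, 305 and 366 CPM in otk1 RNAi wnt4 RNAi and 264 and 236 CPM in otk2 RNAi wnt4 RNAi, against 100.3 and 149 CPM in WT. In otk1 RNAi it had 207 and 201 CPM. None of these libraries overlapped with WT. Its log2 fold change was 1.07 ± 0.20 in the libraries labelled wnt4 RNAi (adjusted p = 0.000995, edgeR), 1.43 ± 0.20 in otk1 RNAi wnt4 RNAi (adjusted p = 8.06e-05) and 0.71 ± 0.20 in otk1 RNAi (adjusted p = 0.0187). Its cyclin partners CycA, CycB and CycB3 also rose in the libraries labelled wnt4 RNAi, by 1.01, 1.43 and 1.05. CycB had 2682 and 2675 CPM there, against 615 and 1375 CPM in WT, and the WT libraries differed from each other by 1.16 on the log2 scale.

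The spindle checkpoint genes rose in all 5 groups. BubR1 (FBgn0263855, on 2R), the kinase of the checkpoint complex, had 299 and 320.0 CPM in the libraries labelled wnt4 RNAi, 287 and 312 CPM in otk1 RNAi wnt4 RNAi and 278 and 284 CPM in otk2 RNAi wnt4 RNAi, against 80.1 and 158 CPM in WT. In otk1 RNAi it had 225 and 215 CPM and in otk1 RNAi otk2 RNAi 226 and 209 CPM. All were above both WT libraries. The log2 fold change was 1.38 ± 0.24 in the libraries labelled wnt4 RNAi (adjusted p = 0.000691, edgeR) and 0.89 ± 0.24 in otk1 RNAi (adjusted p = 0.0162). Its partner Bub3 (FBgn0025457, on 3R, overlapping ppk19 on the other strand) had 274 and 248 CPM in the libraries labelled wnt4 RNAi, 285 and 327 CPM in otk1 RNAi wnt4 RNAi and 253 and 255 CPM in otk2 RNAi wnt4 RNAi, against 109 and 153 CPM in WT. Again the groups did not overlap, and the log2 fold change was 1.00 ± 0.16 in the libraries labelled wnt4 RNAi (adjusted p = 0.000445, edgeR) and 0.59 ± 0.16 in otk1 RNAi (adjusted p = 0.0158), where it had 203 and 191 CPM. In otk1 RNAi neither gene passed without WT replicate 1.

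The activators of the anaphase promoting complex parted. fzy (fizzy, the fly Cdc20), which acts in mitosis, rose in all 5 groups, by 0.50 to 1.12. fzr (fizzy-related, FBgn0262699, the fly Cdh1, on X, bases 4667290 to 4679537, minus strand), which holds cells in G1 and is needed for endoreplication, had 112 and 114 CPM in otk1 RNAi wnt4 RNAi, against 144 and 156 CPM in WT. It fell by 0.41 on the log2 scale there (SE 0.09, adjusted p = 0.00185, edgeR) and was the 1 mitotic member called lower. In the libraries labelled wnt4 RNAi it had 137 and 129 CPM and a log2 fold change of -0.17 ± 0.09 that did not pass (adjusted p = 0.131, edgeR). Among the kinases and spindle proteins, polo, Incenp and aurA rose in all 5 groups. The order of groups for aurA was unlike that of the other mitotic genes, with its largest value in otk1 RNAi otk2 RNAi (1.16 ± 0.21) and its smallest in the libraries labelled wnt4 RNAi (0.55 ± 0.21). The kinesin genes ncd and Klp61F and the centralspindlin genes tum and pav, which act in spindle assembly and cytokinesis, rose in the libraries labelled wnt4 RNAi by 0.72 to 1.04, and did not pass in otk1 RNAi (0.36 to 0.55).

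**Figure D3:**
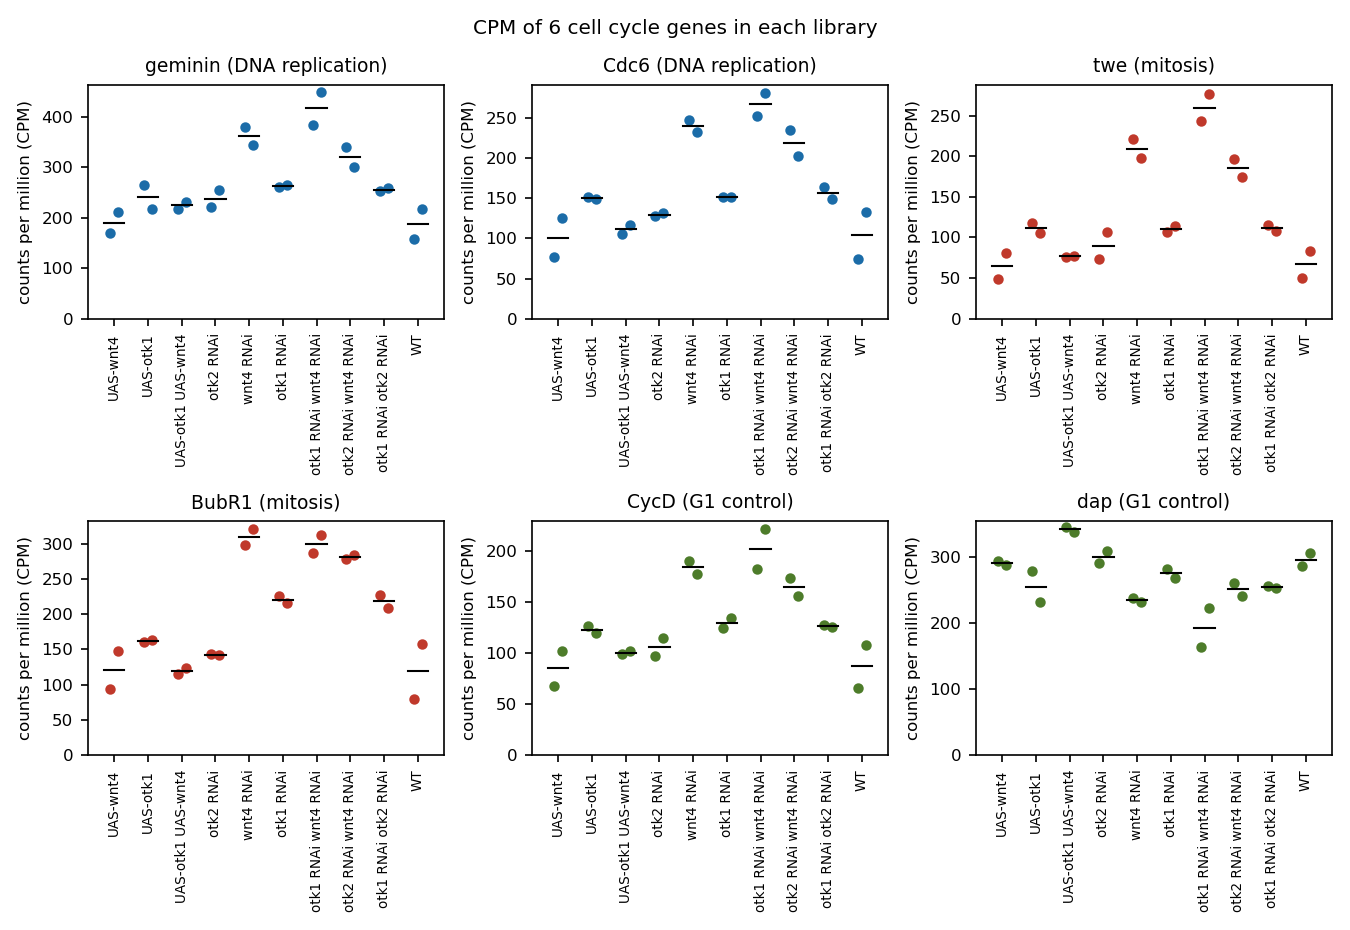
CPM (y axis, from 0) of geminin, Cdc6, twe, BubR1, CycD and dap in every library, by group (x axis). Points are libraries and bars the mean of 2. The 3 groups with the wnt4 RNAi label stand highest for the first 5 genes, with 175 CPM or more for twe against 50.5 and 83.3 CPM in WT, while dap is lowest in otk1 RNAi wnt4 RNAi.

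The 8 G1 genes shared a direction less than the other classes did. The log2 fold change was above 0 for 7 in the libraries labelled wnt4 RNAi, 7 in otk2 RNAi wnt4 RNAi and 6 in otk1 RNAi. It was above 0 for 6 in otk1 RNAi otk2 RNAi and 4 in otk1 RNAi wnt4 RNAi. In the libraries labelled wnt4 RNAi 3 were higher and 1 lower (median log2 fold change 0.25), in otk1 RNAi wnt4 RNAi 3 and 1 (0.15), in otk2 RNAi wnt4 RNAi 4 and 0 (0.30), in otk1 RNAi 2 and 0 (0.31) and in otk1 RNAi otk2 RNAi 2 and 0 (0.24). Over all genes 21% to 30.9% were higher and 24.4% to 31.4% lower. The 25.0% called in otk1 RNAi and in otk1 RNAi otk2 RNAi was near these shares. CycD (FBgn0010315, on X, bases 15906822 to 15909676, minus strand), the cyclin of Cdk4 in growth and G1 progression, had 191 and 178 CPM in the libraries labelled wnt4 RNAi, 182 and 222 CPM in otk1 RNAi wnt4 RNAi and 173 and 156 CPM in otk2 RNAi wnt4 RNAi, against 65.9 and 108 CPM in WT. Its log2 fold change was 1.08 ± 0.21 in the libraries labelled wnt4 RNAi (adjusted p = 0.00127, edgeR) and 0.58 ± 0.21 in otk1 RNAi, at 125 and 135 CPM (adjusted p = 0.0480). Cdk4 (FBgn0016131) was flatter. It had 43.8 and 55.0 CPM in otk1 RNAi wnt4 RNAi, against 37.2 and 43.0 CPM in WT, where its log2 fold change of 0.30 ± 0.13 passed (adjusted p = 0.0577, edgeR) and did not without WT replicate 1 (0.19). In otk1 RNAi it had 33.7 and 36.3 CPM, below both WT libraries, with a log2 fold change of -0.20 ± 0.13 that did not pass (adjusted p = 0.236).

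E2F and its partners set the S phase genes in motion, with Rbf as their brake. Dp (FBgn0011763), the dimer partner of E2F, had 354 and 373 CPM in the libraries labelled wnt4 RNAi and 349 and 347 CPM in otk1 RNAi wnt4 RNAi, against 196 and 283 CPM in WT. It rose by 0.60 ± 0.15 in the libraries labelled wnt4 RNAi (adjusted p = 0.00603, edgeR) and did not pass in otk1 RNAi, at 306 and 290.1 CPM (0.32 ± 0.15, adjusted p = 0.121). E2f1 passed in none of the 5 groups (-0.19 to 0.19), nor did Rbf (-0.33 to 0.31). CycE, whose product drives S phase with Cdk2, rose in otk1 RNAi (0.92), otk1 RNAi otk2 RNAi (0.80), otk2 RNAi wnt4 RNAi (0.75) and the libraries labelled wnt4 RNAi (0.65), and not in otk1 RNAi wnt4 RNAi (0.33). Cdk2 passed in otk2 RNAi wnt4 RNAi alone (0.45).

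The inhibitor gene dap (dacapo, FBgn0010316, on 2R, the fly p27), which stops CycE with Cdk2 as cells leave the cycle, went the other way. It had 164 and 223 CPM in otk1 RNAi wnt4 RNAi and 239 and 232 CPM in the libraries labelled wnt4 RNAi, against 287 and 307 CPM in WT, with no overlap. It fell by 0.62 on the log2 scale in otk1 RNAi wnt4 RNAi (SE 0.13, adjusted p = 0.00134, edgeR) and by 0.33 in the libraries labelled wnt4 RNAi (SE 0.13, adjusted p = 0.0459). Without WT replicate 1 the log2 fold changes were -0.67 and -0.39, both still called. In the libraries labelled wnt4 RNAi the call was lost without WT replicate 2 (-0.28), without their own replicate 2 (-0.32), with no count filter (-0.29), with only the groups compared (-0.34) and with the stage score (-0.52). Of the 41 genes, dap differed least between the WT libraries (0.10 on the log2 scale). It had 261 and 242 CPM in otk2 RNAi wnt4 RNAi, 283 and 269 CPM in otk1 RNAi and 257 and 253 CPM in otk1 RNAi otk2 RNAi, all below both WT libraries and not past the threshold (-0.24, -0.11 and -0.22). With otk1 overexpressed, dap had 279 and 232 CPM in UAS-otk1, also below both WT libraries and not past the threshold (-0.22). In UAS-otk1 UAS-wnt4 it had 346 and 339 CPM, above both.

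Replication genes were then set against mitosis genes within each library. The mean log2 CPM of the 18 mitosis genes relative to WT was 0.98 and 0.96 in the libraries labelled wnt4 RNAi, and that of the 15 replication genes was 0.73 and 0.78. The difference, replication minus mitosis, was thus -0.25 and -0.18 in these libraries, -0.23 and -0.40 in otk1 RNAi wnt4 RNAi and -0.14 and -0.10 in otk2 RNAi wnt4 RNAi, against 0.05 and -0.05 in WT. All 6 lay below the other 14 libraries, which ran from -0.09 to 0.08. The margin was narrow, with -0.101 in otk2 RNAi wnt4 RNAi replicate 2 and -0.092 in otk1 RNAi otk2 RNAi replicate 1. Among further genes of these processes, listed below, the replication median was above the mitosis median in otk2 RNAi wnt4 RNAi (0.64 and 0.59). It was below it in the libraries labelled wnt4 RNAi (0.55 and 0.63) and in otk1 RNAi wnt4 RNAi (0.32 and 0.50). In otk1 RNAi the difference was -0.05 and -0.02, in otk1 RNAi otk2 RNAi -0.09 and 0.08 and in the overexpression groups and otk2 RNAi between -0.04 and 0.08. These are descriptions of means over chosen genes and carry no test. The spread of the WT libraries was wide for each class, with -0.34 and 0.34 for replication and -0.40 and 0.40 for mitosis, but small for their difference.

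**Figure D4:**
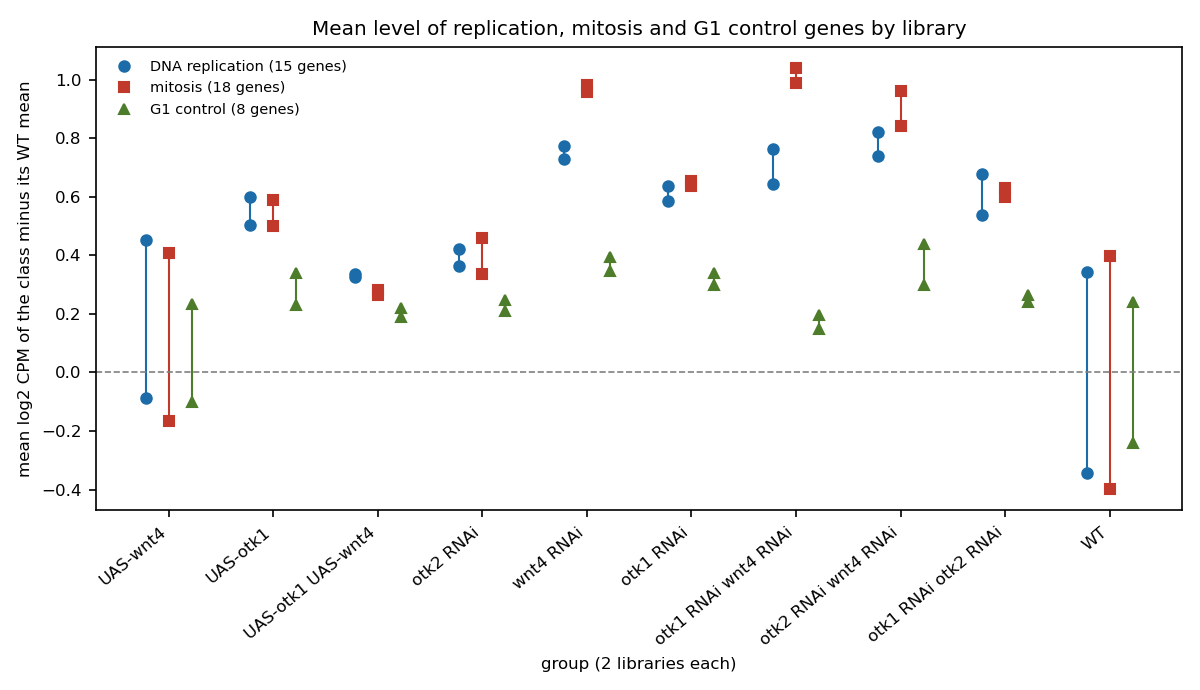
Mean log2 CPM of the replication (circles), mitosis (squares) and G1 control genes (triangles) in each library, minus the WT mean of that class (y axis), by group (x axis), with lines joining the 2 libraries of a group. Squares stand above circles in all 6 libraries with the wnt4 RNAi label (0.84 to 1.04 for mitosis, 0.64 to 0.82 for replication), and both classes span the widest range within WT.

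Comparisons that leave WT out ask what the wnt4 RNAi label adds to a hairpin against a co-receptor. In otk1 RNAi wnt4 RNAi against otk1 RNAi, 13 members were higher and 4 lower, where 19.5% of all genes were higher and 11.7% lower. The higher genes were twe (1.23 ± 0.24, adjusted p = 0.00441, edgeR), tum, Cdc6, Cdk1, dup, geminin, Mcm7, ncd, polo, CycD, Bub3, fzy and Cdk4, with log2 fold changes of 0.50 to 1.23. The lower ones were Rbf (-0.64), dap (-0.51), E2f1 (-0.38) and fzr (-0.35), genes that hold cells in G1 or, in the case of E2f1, drive S phase. For dap the values were 164 and 223 CPM in otk1 RNAi wnt4 RNAi, against 283 and 269 CPM in otk1 RNAi. For Rbf they were 99.5 and 73.9 CPM, against 131 and 139.7 CPM in otk1 RNAi. For E2f1 they were 182 and 216 CPM, against 266 and 249.7 CPM in otk1 RNAi. None of the 3 overlapped between the groups, as was so for 15 of the 41 genes in this direction (28.5% of all genes). In the other direction 25 did not overlap (36.1% of all genes). The 4 lower calls were near the 11.7% of all genes. By class, 7 mitosis genes were higher and 1 lower (median 0.48), 4 replication genes higher and 0 lower (0.17) and 2 G1 genes higher and 3 lower (-0.36). The count of 17 was 9 without either otk1 RNAi library and 4 without otk1 RNAi wnt4 RNAi replicate 2, in which Mcm2, Orc2, Cdk2, Rbf and RnrL were lower than in replicate 1.

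**Figure D5:**
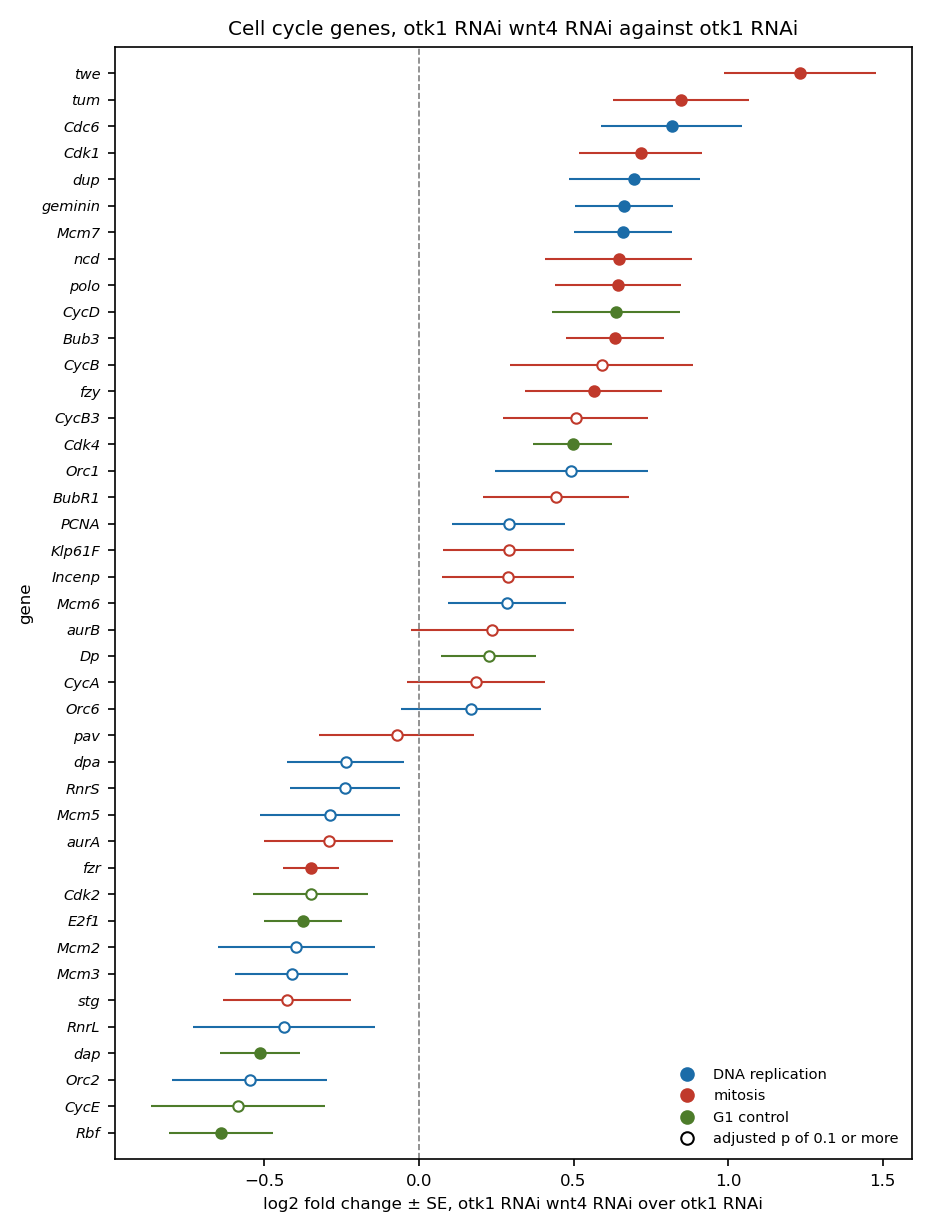
Log2 fold change with its standard error (x axis) of the 41 genes (rows, sorted) in otk1 RNAi wnt4 RNAi over otk1 RNAi. Filled points have an edgeR adjusted p under 0.1 and open points do not. Mitosis and licensing genes lie at the top with twe at 1.23, and Rbf, CycE, Orc2 and dap lie at the bottom.

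In otk2 RNAi wnt4 RNAi against otk2 RNAi, 14 members were higher and 0 lower, where 20.8% of all genes passed, 14.1% higher and 6.75% lower (0 lower at an unadjusted p under 0.05 in edgeR, 0 by DESeq2). The largest were twe (1.05 ± 0.24, adjusted p = 0.0153, edgeR), BubR1 (0.98 ± 0.24, adjusted p = 0.0187) and Orc1 (0.97 ± 0.25, adjusted p = 0.0229), the last at 213 and 213 CPM in otk2 RNAi wnt4 RNAi, against 104 and 112 CPM in otk2 RNAi. None of these overlapped between the groups, as was so for 31 of the 41 genes in this direction (30.7% of all genes). The count was 0 without otk2 RNAi replicate 1, 7 without its replicate 2, and 1 and 6 without otk2 RNAi wnt4 RNAi replicate 1 and 2. In otk1 RNAi otk2 RNAi against otk2 RNAi, 0 of 41 passed in edgeR, where 8.68% of all genes did (3 at an unadjusted p under 0.05, 0 by DESeq2), with a median of 0.17.

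The libraries labelled RNAi were also set against those overexpressing the same gene, with the limit that Wnt4 was not below WT in the libraries labelled wnt4 RNAi. In the libraries labelled wnt4 RNAi against UAS-wnt4, 24 members were higher and 1, dap, was lower, where 25.7% of all genes were higher and 24.4% lower. For twe the values were 221 and 197 CPM in the libraries labelled wnt4 RNAi, against 48.7 and 81.3 CPM in UAS-wnt4, a log2 fold change of 1.68 ± 0.25 (adjusted p = 0.000320, edgeR). The dap call (-0.30) was lost without any of the 4 libraries, with RLE scaling, with no count filter and with only the groups compared. The count was 16 without UAS-wnt4 replicate 1, the lower of that pair in 40 of the 41 genes. In otk1 RNAi against UAS-otk1, whose otk levels differed by a log2 fold change of -5.36, 0 of 41 passed in edgeR, where 3.56% of all genes did (0 at an unadjusted p under 0.05, 0 by DESeq2), and the median was 0.06. For BubR1 the values were 225 and 215 CPM in otk1 RNAi, against 161 and 163 CPM in UAS-otk1, the largest difference of the 41 in this comparison (0.44).

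The change under the wnt4 RNAi label was then set against the change under the same label with a co-receptor hairpin. With otk1, the log2 change under the label was lower in the presence of otk1 RNAi than without it for 10 members and higher for 0, where 7.93% of all genes were called in this direction and 11.8% in the other (0 in the other direction at an unadjusted p under 0.05 in edgeR, 0 by DESeq2). The largest was CycE (-1.24 ± 0.40 on the log2 scale), followed by RnrL (-1.17). Like the share of all genes passing, the count fell without WT replicate 1 and rose without WT replicate 2. It was 1 and 0 without replicate 1 or 2 of the libraries labelled wnt4 RNAi, 0 and 0 without those of otk1 RNAi and 4 and 1 without those of otk1 RNAi wnt4 RNAi. With otk2, 0 of 41 passed in edgeR, where 0.0807% of all genes did (2 at an unadjusted p under 0.05, 0 by DESeq2). Without WT replicate 2 the count rose, as did the share of all genes passing.

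Other genes of the same processes were followed as lists that do not contain the 41. Of 32 further replication genes, 22 rose in the libraries labelled wnt4 RNAi (29.7% of all genes) and 15 in otk1 RNAi wnt4 RNAi (30.9%). In each of otk2 RNAi wnt4 RNAi (27.7%), otk1 RNAi (21%) and otk1 RNAi otk2 RNAi (22.5%) 25 rose, and none fell in any group. The median log2 fold changes there were 0.64, 0.63 and 0.63, above the 0.55 in the libraries labelled wnt4 RNAi and the 0.32 in otk1 RNAi wnt4 RNAi. The largest change was in dUTPase, which keeps uracil out of DNA. It rose by 2.11 ± 0.20 in the libraries labelled wnt4 RNAi, 2.59 ± 0.20 in otk1 RNAi wnt4 RNAi and 1.67 ± 0.19 in otk1 RNAi. Of 52 further mitosis genes, 33 rose and 2 fell in the libraries labelled wnt4 RNAi, and 27 rose and 4 fell in otk1 RNAi wnt4 RNAi. The checkpoint gene mad2 rose there by 1.62 ± 0.25 and 2.06 ± 0.25, and the kinase gene Wee1, which opposes twe and stg on Cdk1, by 1.43 ± 0.22 and 1.63 ± 0.22. Of 12 genes of the early, maternally driven cycles, 6 and 8 were higher, among them plu and gnu, subunits of the PNG kinase complex, with 1.57 ± 0.39 and 1.95 ± 0.61 in the libraries labelled wnt4 RNAi. Of 14 further G1 genes, 9 rose in the libraries labelled wnt4 RNAi and none fell, and 8 rose and 2 fell in otk1 RNAi wnt4 RNAi. Of all 110 listed genes, 70 rose and 2 fell in the libraries labelled wnt4 RNAi, and 58 rose and 6 fell in otk1 RNAi wnt4 RNAi. In otk2 RNAi wnt4 RNAi 73 rose, in otk1 RNAi 65 and in otk1 RNAi otk2 RNAi 64, and none fell. In otk1 RNAi wnt4 RNAi against otk1 RNAi, 24 of all 110 listed genes rose and 16 fell, shares near those of all genes (19.5% higher and 11.7% lower), with a median of -0.15. The securin gene pim was among those that rose (1.41 ± 0.28).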

How the data were processed

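Total RNA of 20 libraries of Drosophila melanogaster embryos was sequenced by the authors on an Illumina instrument (paired reads of 151 bp). Per the labels and the submitters' processing notes, reads were aligned to dm6 with STAR 2.7.1a and assigned to genes with RSEM 1.3.1. The deposited expected counts are estimates that need not be whole (11.6% are not) and were rounded. The TPM values deposited beside them, scaled for gene length and library by the authors' RSEM run, were used only to compare levels between genes, and the deposited FPKM values were not used. Mitochondrial, rRNA, snoRNA and snRNA genes (426, holding 5.99 to 10.9% of counts) were left out. After removal of genes with a mean under 10 counts, 11154 genes entered the test in edgeR 4.0.16 in R 4.3.3 (quasi-likelihood fit, TMM scaling, 1 mean per group, all libraries), with Benjamini-Hochberg adjustment over all genes tested and a threshold of 10%. CPM values use the TMM-scaled library sizes. The test was tried on simulated counts. With 2 libraries per group no exact permutation test could reach the threshold, so the spread was shared across genes and groups.

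The members and the gene lists were chosen with earlier results of these data known. Per-library values are given for the 4 genes of each class with the smallest p across the 10 groups and for any gene that passed against the direction of its class. Others are given by range and count, or named where they are extreme. Alternatives were DESeq2 1.42.0, RLE scaling, no count filter, a 5% threshold, the replicate number as a block, only the groups compared, a stage score as covariate, and leaving out each library. Gene positions come from the annotation Ensembl BDGP6.54 on dm6. No gene, promoter or protein sequences were used here.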

Additional observations from a re-analysis of the deposited data

Results flagged for a closer look

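For 10 of the 41 genes, the change that went with the wnt4 RNAi label differed between embryos with and without otk1 RNAi by the interaction term in edgeR (adjusted p under 0.1, where 7.93% of all genes passed in this direction). The difference, given as the log2 change in the presence of otk1 RNAi minus the log2 change without it, was -1.24 for CycE, -1.17 for RnrL, -1.02 for Orc1, -0.94 for BubR1, -0.89 for Mcm5, -0.85 for aurA, -0.83 for CycA, -0.73 for dpa, -0.70 for Rbf and -0.57 for E2f1. In CycE, which drives S phase, the levels were 197 and 195 CPM in otk1 RNAi wnt4 RNAi, 274 and 315 CPM in otk1 RNAi, 231 and 259 CPM in the libraries labelled wnt4 RNAi, and 101 and 211 CPM in WT. Each of these terms uses both WT libraries, which lay apart for all 41 genes, and none of the 10 genes passed without WT replicate 1, where 0.789% of all genes did. The part of WT replicate 1 in the term was not tested beyond leaving it out.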

How the results depend on the processing

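Counts are of the 41 genes past the threshold in either direction. With the stage score as covariate the count was 0 in the libraries labelled wnt4 RNAi (31 without it, 2.83% of all genes with it). It was 0 in otk1 RNAi (0.583%), 15 in otk1 RNAi wnt4 RNAi (27.7%) and 0 in otk2 RNAi wnt4 RNAi (1.62%). It was 1 in otk1 RNAi otk2 RNAi (0.565%) and 2 in UAS-otk1 UAS-wnt4 (0.968%), all against WT. It was 8 in otk2 RNAi wnt4 RNAi against otk2 RNAi (13% of all genes) and 29 in otk1 RNAi wnt4 RNAi against otk1 RNAi (38.2%). It was 12 in the libraries labelled wnt4 RNAi against UAS-wnt4 (18.7%), 4 in otk1 RNAi against UAS-otk1 (4.76%) and 0 in the interaction with otk1 (0.0448%). With only the groups compared in the fit it was 11 in otk1 RNAi, 21 in otk2 RNAi wnt4 RNAi, 6 in otk1 RNAi otk2 RNAi and 0 in UAS-otk1 UAS-wnt4 against WT, 2 in otk1 RNAi otk2 RNAi against otk2 RNAi, 28 in otk1 RNAi wnt4 RNAi against otk1 RNAi, 1 in otk1 RNAi against UAS-otk1 and 1 in the interaction with otk1. At 5% it was 0 in UAS-otk1 UAS-wnt4, 6 in otk2 RNAi wnt4 RNAi against otk2 RNAi and 0 in the interaction with otk1. DESeq2 gave 11 in UAS-otk1, 2 in UAS-otk1 UAS-wnt4 and 1 in otk2 RNAi, and no count filter gave 10 in UAS-otk1. The causes were not tested.

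Leaving out each library in turn gave 0 to 3 in UAS-wnt4, 0 to 37 in UAS-otk1, 0 to 29 in UAS-otk1 UAS-wnt4, 0 to 35 in otk2 RNAi, 23 to 38 in the libraries labelled wnt4 RNAi, 0 to 38 in otk1 RNAi, 26 to 37 in otk1 RNAi wnt4 RNAi, 19 to 36 in otk2 RNAi wnt4 RNAi and 3 to 37 in otk1 RNAi otk2 RNAi, all against WT. It gave 0 to 7 in otk2 RNAi wnt4 RNAi against otk2 RNAi, 4 to 17 in otk1 RNAi wnt4 RNAi against otk1 RNAi, 16 to 30 in the libraries labelled wnt4 RNAi against UAS-wnt4, 0 to 37 in the interaction with otk1 and 0 to 12 in that with otk2. All highest counts against WT and in the interactions came without WT replicate 2, where the share of all genes passing was also above that with both WT libraries.

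The labels give replicate numbers only, and the differences between replicates 1 and 2 correlated between groups compared at -0.07 to 0.59, so the libraries were not treated as paired. With the replicate block 8 genes passed in UAS-otk1 and 2 in UAS-otk1 UAS-wnt4.

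Of 81 called values of 13 genes, 81 kept their call with DESeq2, 79 with RLE scaling and 64 with only the groups compared. Under the stage score, whose slope rests on differences within groups that were widest in WT and UAS-wnt4, 35 kept it and 20 turned direction. In otk1 RNAi against WT these were geminin (-0.18), Cdc6 (-0.51), Orc1 (-0.12), twe (-0.36), Bub3 (-0.052), BubR1 (-0.13), Cdk1 (-0.0659) and CycD (-0.38). In otk1 RNAi otk2 RNAi against WT they were geminin (-0.30), Cdc6 (-0.61), Orc1 (-0.12), twe (-0.48), Bub3 (-0.21), BubR1 (-0.29), Cdk1 (-0.12) and CycD (-0.55). The others were Cdk4 in otk1 RNAi wnt4 RNAi (-0.021), dup in otk2 RNAi wnt4 RNAi (-0.0063), and Orc1 (0.15) and BubR1 (0.17) in the interaction with otk1. With 2 libraries a group, a missing call says little about small differences.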
